A study of Mus musculus with 9 samples.

Results

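The genes described here are 9 of 48709 genes counted in sorted hippocampal neuronal nuclei, of which 17361 had enough reads to be tested. They were chosen by the size of their difference between caffeine-treated and vehicle-treated Tg4-42 mice. Among the genes that were differentially expressed in this contrast, Spata13, Muc3a, B930018H19Rik and Gm42636 were among the largest rises, and Chodl, Sulf1, Pth2r, Gm26760 and 4930539E08Rik were the largest falls. Because this contrast selected them, its values are given below as a description without a test. Tg4-42 mice are homozygous transgenic animals on the C57BL/6J background in which the murine Thy1 promoter drives human Aβ4-42 behind the signal peptide of thyrotropin-releasing hormone. There were 3 WT mice and 3 Tg4-42 mice on tap water as vehicle, and 3 Tg4-42 mice given caffeine at 300 mg/l in the drinking water from 2 months of age for 4 months, so that all were 6 months old. Nuclei of frozen whole hippocampi were stained for the neuronal protein NeuN and sorted, and no caffeine-treated WT mice were among the samples analysed here.

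Adenosine dampens neuronal activity through receptors that caffeine blocks. The 9 genes belong to no single pathway. Spata13, also known as Asef2, is an exchange factor that loads the small GTPases Rac1 and Cdc42 with GTP and is released from autoinhibition by the APC protein. Sulf1 is a secreted sulfatase that removes 6-O-sulfate groups from heparan sulfate, the sugar chains on which many growth factors reach their receptors. Chodl encodes chondrolectin, a membrane protein with a C-type lectin domain that marks a rare class of long-range projecting somatostatin neurons. Pth2r is a G protein-coupled receptor for the neuropeptide encoded by Pth2, and Muc3a belongs to the membrane-bound mucins of epithelia.

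The transgene was visible in the libraries that should carry it. Trh lay between 51.3 and 64.7 CPM (counts scaled to the size of the library) in vehicle-treated and between 48.0 and 59.7 in caffeine-treated Tg4-42 mice, against 1.81 to 4.39 CPM in WT mice. Rbfox3, which encodes the NeuN protein used for sorting, was found at 126 to 148 CPM in caffeine-treated Tg4-42 mice, 99.6 to 117 CPM in vehicle-treated Tg4-42 mice and 89.3 to 116 CPM in WT mice. The caffeine group thus lay above both others without overlap, although Rbfox3 missed the threshold between caffeine and vehicle (log2 0.28, SE 0.131, adjusted p = 0.291 by edgeR). Libraries held between 9342945 and 16376922 counts, so that 3 counts, taken as the floor of detection, corresponded to 0.19 to 0.325 CPM. The floor reflects counting error alone. In each group, replicate 3 was run on sequencing lane 7 and the other mice on lane 6.

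RefSeq promoter sequences on build GRCm38.p6 were found for 5 of the 9 genes, namely Spata13, B930018H19Rik, Chodl, Pth2r and Gm26760. Spata13 has 2 RefSeq starts that lie 98.2 kb apart, and the deposited counts add the exons behind both. The 250 bases before each Spata13 start, and before the start of the most strongly raised and the most strongly lowered gene, are shown 5′ to 3′ on the strand of the gene, to give the sequence at which their transcription begins. The Spata13 windows are chr14:60634455-60634704 and chr14:60732654-60732903 on the plus strand, the B930018H19Rik window is chr8:34640317-34640566 on the minus strand, and the Chodl window is chr16:78930698-78930947 on the plus strand. Capitals mark GGCGTGG in Spata13, TATAAA in B930018H19Rik and TATATAA in Chodl.
Spata13, first start: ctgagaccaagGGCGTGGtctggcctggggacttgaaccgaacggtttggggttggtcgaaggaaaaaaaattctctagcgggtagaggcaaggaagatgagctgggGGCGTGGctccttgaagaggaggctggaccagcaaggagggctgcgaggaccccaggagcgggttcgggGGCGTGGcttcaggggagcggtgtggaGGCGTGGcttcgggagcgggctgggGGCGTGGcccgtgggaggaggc
Spata13, second start: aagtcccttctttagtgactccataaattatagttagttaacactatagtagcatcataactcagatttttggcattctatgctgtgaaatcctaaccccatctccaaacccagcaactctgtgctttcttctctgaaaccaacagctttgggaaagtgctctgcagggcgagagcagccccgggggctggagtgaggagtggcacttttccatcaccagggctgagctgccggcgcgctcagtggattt
B930018H19Rik: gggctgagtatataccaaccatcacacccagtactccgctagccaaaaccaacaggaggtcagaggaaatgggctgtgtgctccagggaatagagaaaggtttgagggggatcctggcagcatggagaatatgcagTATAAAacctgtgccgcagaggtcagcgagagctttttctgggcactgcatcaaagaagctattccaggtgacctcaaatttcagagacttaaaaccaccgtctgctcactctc
Chodl: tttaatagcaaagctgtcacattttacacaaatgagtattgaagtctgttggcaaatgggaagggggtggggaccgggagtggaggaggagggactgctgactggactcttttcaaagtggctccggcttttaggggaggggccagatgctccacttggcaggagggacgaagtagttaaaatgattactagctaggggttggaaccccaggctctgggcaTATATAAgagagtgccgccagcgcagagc

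Each word was searched on both strands of these windows and of the same 250-base windows of all 32851 RefSeq promoters. The first Spata13 start held GGCGTGG 5 times and the second held it 0 times, and 4 of all promoters, 0.0122%, held it 5 times or more. TATAAA stood once before B930018H19Rik and in 12.4% of all promoters, and TATATAA stood once before Chodl and in 3.04%. GGCGTGG and TATATAA were picked after the sequences were seen. The cAMP response element TGACGTCA, present in 1.5% of all promoters, its core TGACG, in 17.8%, the E-box CACGTG, in 6.0%, and the GC box GGGCGG, in 32.7%, were not found in the windows of the 5 genes. The first Spata13 start had 65.6% G and C with 16 CpG dinucleotides, whereas the second had 48.8% with 5, and the medians of all promoters were 52.4% and 6.

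Among the genes that were higher with caffeine, Spata13 (ENSMUSG00000021990, chr14:60634001-60764556, plus strand, protein coding) had the highest level in CPM, which is not corrected for gene length. It was found at 27.9, 26.3 and 30.4 CPM in the caffeine-treated mice and at 11.6, 12.4 and 6.67 CPM in the vehicle-treated Tg4-42 mice. WT mice had 8.0, 9.48 and 8.21 CPM. The 3 caffeine-treated mice thus stood above all other mice, and the vehicle-treated groups overlapped. Means were 28.2 ± 2.07 with caffeine, 10.2 ± 3.12 with vehicle and 8.56 ± 0.797 in WT mice (CPM, SD, n = 3 each), and the fitted difference between caffeine and vehicle was 2.76-fold, or 1.46 on the log2 scale (SE 0.21). The lowest of the vehicle-treated Tg4-42 values, 6.67 CPM, came from replicate 3, and without this mouse the log2 difference was 1.24.

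Muc3a (ENSMUSG00000094840, chr5:137208813-137212389, minus strand, protein coding) was found at 14.0, 10.6 and 17.3 CPM with caffeine. Vehicle-treated Tg4-42 mice had 6.17, 6.99 and 3.77 CPM and WT mice 7.3, 8.15 and 7.89 CPM. No group overlapped with another, and WT mice lay between the Tg4-42 groups. The means were 14.0 ± 3.33, 5.65 ± 1.67 and 7.78 ± 0.437 CPM (SD, n = 3 each), and the difference between caffeine and vehicle was 2.46-fold (log2 1.30, SE 0.25). GENCODE marks the Muc3a locus as affected by an error of the reference genome.

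B930018H19Rik (ENSMUSG00000109819, chr8:34589420-34640316, minus strand) is a long intergenic non-coding RNA with the lowest counts among the raised genes. Caffeine-treated mice had 1.62, 2.01 and 1.92 CPM, vehicle-treated Tg4-42 mice 0.541, 0.513 and 0.562 CPM and WT mice 1.33, 1.26 and 1.1 CPM. The vehicle-treated Tg4-42 mice stood below both other groups without overlap. These levels rested on 22, 29 and 25 counts with caffeine and on 5, 8 and 7 counts with vehicle. The means were 1.85 ± 0.204, 0.539 ± 0.0245 and 1.23 ± 0.12 CPM (SD, n = 3 each), and the difference was 3.4-fold (log2 1.76, SE 0.38). Its gene body also holds Gm34096 on the opposite strand, which shares 0 exon bases with it.

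Gm42636 (ENSMUSG00000104682, chr5:145292770-145295008, plus strand) is a transcript with 1 exon whose coding status GENCODE leaves undetermined. It was found at 2.79, 3.46 and 5.38 CPM with caffeine, at 1.73, 1.09 and 1.37 CPM in vehicle-treated Tg4-42 mice and at 2.28, 3.16 and 2.72 CPM in WT mice. Again the vehicle-treated Tg4-42 mice were lowest, and the WT values fell partly within the caffeine group. The means were 3.88 ± 1.34, 1.4 ± 0.321 and 2.72 ± 0.442 CPM (SD, n = 3 each), and the difference was 2.81-fold (log2 1.49, SE 0.33). Of all 50-base stretches of its transcript, 5.25% also occur in transcripts of other genes, mainly C230072F16Rik, so that some of its reads could belong there.

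**Figure D1:**
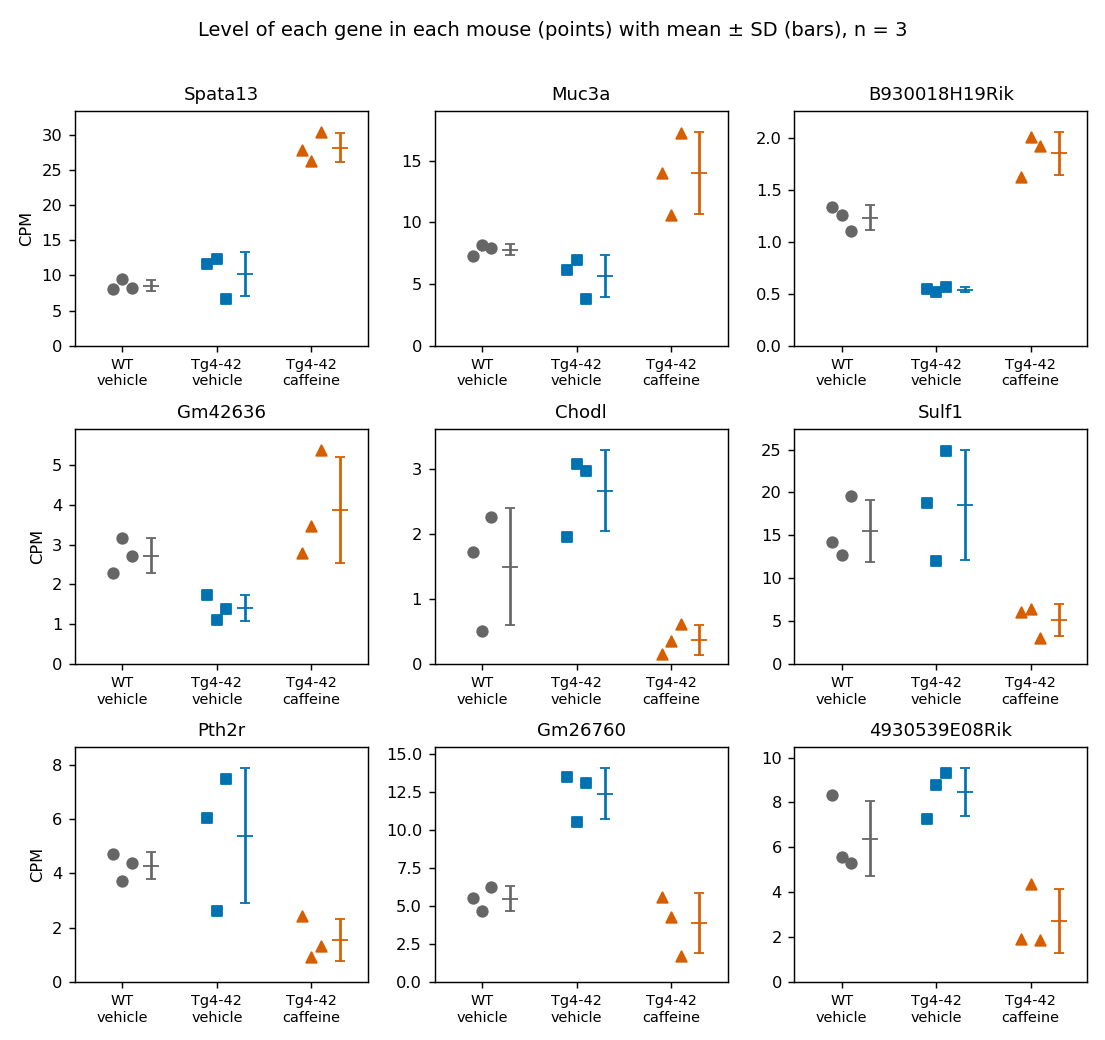
Normalized level in CPM (linear axis from 0) of the 9 genes in each mouse, with 3 WT vehicle mice as grey circles, 3 Tg4-42 vehicle mice as blue squares and 3 Tg4-42 caffeine mice as orange triangles; bars give mean ± SD. Spata13 lies between 26.3 and 30.4 CPM in the caffeine group and at or below 12.4 CPM in all other mice, and Gm26760 lies at or above 10.5 CPM in the Tg4-42 vehicle group and at or below 6.27 CPM in all other mice.

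Chodl (ENSMUSG00000022860, chr16:78930948-78951733, plus strand, protein coding) had the largest fold difference and the fewest counts. Caffeine-treated mice had 0.147, 0.346 and 0.615 CPM, from 2, 5 and 8 counts, so that replicate 1 lay under the floor of 3 counts. Vehicle-treated Tg4-42 mice had 1.95, 3.08 and 2.97 CPM, from 18, 48 and 37 counts, and WT mice 1.73, 0.505 and 2.26 CPM, from 22, 8 and 35 counts. The 2 transgenic groups did not overlap, but WT replicate 2 fell within the caffeine range. The means were 0.369 ± 0.235 with caffeine, 2.67 ± 0.625 with vehicle and 1.5 ± 0.901 in WT mice (CPM, SD, n = 3 each), and the difference was 7.2-fold (log2 -2.85, SE 0.56). The summed counts, 103 with vehicle and 15 with caffeine, gave a ratio of 7.29 with an exact 95% binomial interval from 4.22 to 13.5, which covers counting error only.

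Sulf1 (ENSMUSG00000016918, chr1:12692277-12861192, plus strand, protein coding) was found at 6.03, 6.36 and 3.0 CPM with caffeine. Vehicle-treated Tg4-42 mice had 18.8, 12 and 24.8 CPM and WT mice 14.2, 12.7 and 19.6 CPM. All caffeine-treated mice thus lay below all mice of both vehicle groups, which overlapped each other. The means were 5.13 ± 1.85, 18.5 ± 6.41 and 15.5 ± 3.62 CPM (SD, n = 3 each), and the difference between caffeine and vehicle was 3.59-fold (log2 -1.84, SE 0.31). Its counts, between 39 and 309 per mouse, included the highest values among the lowered genes.

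Pth2r (ENSMUSG00000025946, chr1:65282056-65389244, plus strand, protein coding) had 2.43, 0.899 and 1.31 CPM with caffeine, against 6.06, 2.63 and 7.47 CPM in vehicle-treated Tg4-42 and 4.71, 3.73 and 4.4 CPM in WT mice. The lowest vehicle value, from replicate 2, lay only slightly above the highest caffeine value. The means were 1.54 ± 0.791, 5.39 ± 2.49 and 4.28 ± 0.501 CPM (SD, n = 3 each), and the difference was 3.45-fold (log2 -1.79, SE 0.40).

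Gm26760 (ENSMUSG00000097068, chr15:92344359-92378103, plus strand), a long intergenic non-coding RNA, was found at 5.59, 4.29 and 1.69 CPM with caffeine. Vehicle-treated Tg4-42 mice had 13.5, 10.5 and 13.1 CPM and WT mice 5.49, 4.67 and 6.27 CPM. Here the vehicle-treated Tg4-42 mice were the group that stood apart, above all others, while WT and caffeine-treated mice overlapped. The means were 3.85 ± 1.98, 12.4 ± 1.66 and 5.48 ± 0.799 CPM (SD, n = 3 each), and the difference between caffeine and vehicle was 3.18-fold (log2 -1.67, SE 0.31).

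4930539E08Rik (ENSMUSG00000048905, chr17:28896392-28915324, minus strand, protein coding) had 1.91, 4.36 and 1.85 CPM with caffeine, 7.25, 8.79 and 9.32 CPM in vehicle-treated Tg4-42 and 8.32, 5.56 and 5.3 CPM in WT mice. All caffeine-treated mice were below both vehicle groups. The means were 2.7 ± 1.43, 8.45 ± 1.07 and 6.39 ± 1.67 CPM (SD, n = 3 each), and the difference was 3.11-fold (log2 -1.64, SE 0.32). The antisense gene 1700030A11Rik covers 88 of its exon bases, 1.89%, and since the library kit does not mark the strand, reads from these bases cannot be assigned to either gene.

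The caffeine and vehicle groups of Tg4-42 mice overlapped for none of the 9 genes. Over all tested genes, 23.0% did not overlap in this contrast and 0.881% were differentially expressed at an adjusted p under 0.05 by edgeR's quasi-likelihood test, 0.213% as higher and 0.668% as lower. Since the contrast selected the genes, nothing is read from these counts. Just inside the limit of the choice stood Muc3a (log2 1.30) and 4930539E08Rik (log2 -1.64), and just outside stood Ppp1r1a (log2 1.23) and Gm39822 (log2 -1.54). Plk5, a member of the polo-like kinase family, had a log2 difference of 1.52 (SE 0.258) and is not among the 9. Another 43 genes were higher and 57 were lower by more than the last gene chosen in their direction without being differentially expressed, and the median levels of these genes were 0.953 and 0.909 CPM.

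Read as a level per kilobase of exon (RPKM), the 9 genes were modestly expressed. Muc3a with 4.84 and Gm26760 with 4.47 RPKM, averaged over all mice, lay close to the median of tested genes, 4.93 RPKM. Spata13 followed with 1.72 RPKM, then Pth2r with 1.45, 4930539E08Rik with 1.26, Gm42636 with 1.19 and Sulf1 with 1.16. B930018H19Rik with 0.569 RPKM and Chodl with 0.275 RPKM were the lowest, and Chodl exceeded only 4.6% of tested genes. Biological coefficients of variation ranged from 0.174 for Spata13 to 0.362 for Chodl, and the median of all tested genes was 0.162.

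To place the caffeine differences against the WT level, both Tg4-42 groups were compared with WT mice. These comparisons share their Tg4-42 mice with the contrast that chose the genes and are therefore not independent of the choice. Nearness was measured on the scale of log2(CPM + 0.5). WT levels lay nearer to the vehicle-treated Tg4-42 level for Spata13, Muc3a, Chodl, Sulf1, Pth2r and 4930539E08Rik, and nearer to the caffeine level for B930018H19Rik, Gm42636 and Gm26760. The placing of Chodl depends on this scale. Its mean of 1.5 CPM in WT mice lay about midway between 2.67 CPM with vehicle and 0.369 CPM with caffeine.

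Between vehicle-treated Tg4-42 and WT mice, 0 of the 9 genes were differentially expressed with edgeR and 0 with DESeq2, compared with 0.0979% of all tested genes with edgeR. Gm26760 came closest, 2.25-fold higher in vehicle-treated Tg4-42 mice (log2 1.17, SE 0.30, unadjusted p = 0.00148 and adjusted p = 0.607 by edgeR's quasi-likelihood test). B930018H19Rik had a log2 difference of -1.18 (SE 0.39) and Gm42636 one of -0.99 (SE 0.34), both with an adjusted p of 1 by edgeR. Vehicle-treated Tg4-42 and WT mice did not overlap for these 3 genes and for Muc3a (log2 -0.46, SE 0.25), and 6.73% of all tested genes likewise did not overlap. In two-sided exact permutation tests these 4 genes had p = 0.1, the smallest value that 3 mice against 3 allow. Groups that do not overlap always give this value, so the test adds nothing here. For Spata13 the difference was 0.26 (95% interval -0.16 to 0.67), for Sulf1 0.25 (-0.31 to 0.81) and for Pth2r 0.32 (-0.40 to 1.04) on the log2 scale, and the groups overlapped. Chodl (0.85, SE 0.47) and 4930539E08Rik (0.41, SE 0.30) overlapped as well.

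Between caffeine-treated Tg4-42 and WT mice, Spata13 and Sulf1 were differentially expressed, compared with 0.415% of all tested genes. Spata13 was 3.29-fold higher with caffeine (log2 1.72, SE 0.21, adjusted p = 0.000649 by edgeR) and Sulf1 was 3.01-fold lower (log2 -1.59, SE 0.30, adjusted p = 0.0392 by edgeR). The call for Sulf1 was lost with the lane as a covariate (adjusted p = 0.0607 by edgeR) and without any 1 of the WT mice or caffeine replicates 2 or 3, whose adjusted p by edgeR lay between 0.053 and 0.235. Differences that missed the threshold were -1.22 (SE 0.32, adjusted p = 0.0907 by edgeR) for 4930539E08Rik, -1.47 (SE 0.40, adjusted p = 0.105) for Pth2r, -2.00 (SE 0.58, adjusted p = 0.124) for Chodl and 0.84 (SE 0.24, adjusted p = 0.113) for Muc3a. The log2 differences of B930018H19Rik, 0.58 (95% interval -0.08 to 1.25), Gm42636, 0.50 (-0.10 to 1.11), and Gm26760, -0.50 (-1.12 to 0.12), all included 0 in their intervals. Caffeine-treated Tg4-42 and WT mice did not overlap for Spata13, Muc3a, B930018H19Rik, Sulf1, Pth2r and 4930539E08Rik, and the same was true of 18.8% of all tested genes.

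**Figure D2:**
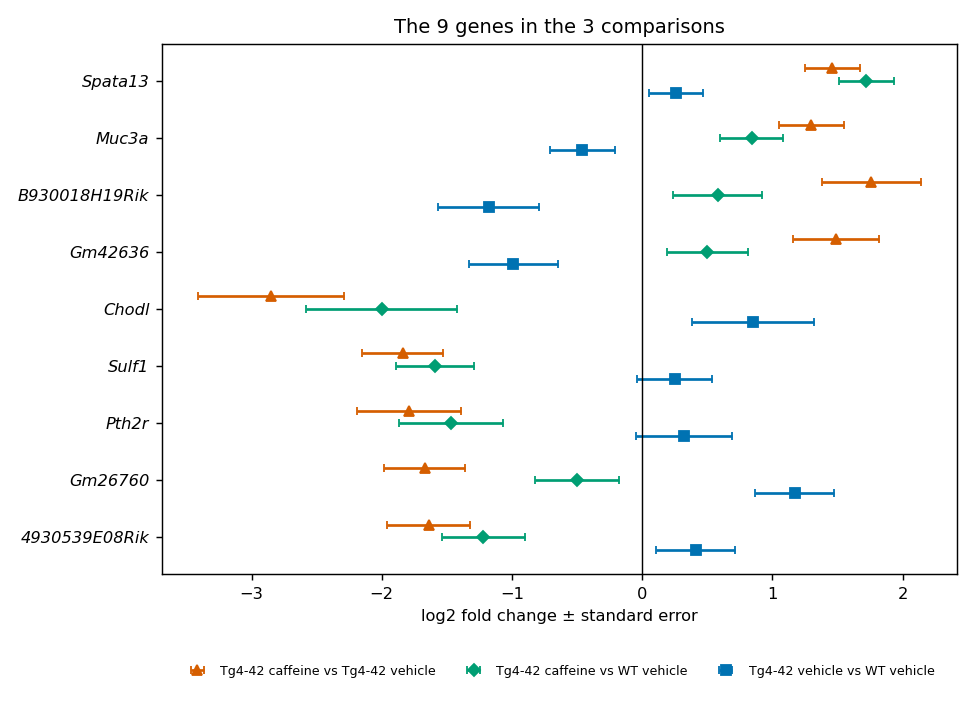
Log2 fold change with its standard error (horizontal axis) of the 9 genes in the 3 comparisons, with orange triangles for Tg4-42 caffeine against Tg4-42 vehicle, green diamonds for Tg4-42 caffeine against WT vehicle and blue squares for Tg4-42 vehicle against WT vehicle. Log2 differences of the caffeine group from the Tg4-42 vehicle and WT groups were 1.46 and 1.72 for Spata13, -1.84 and -1.59 for Sulf1, and -1.67 and -0.50 for Gm26760.

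The caffeine difference was also computed within each lane. On lane 6, with 2 mice per group, log2 differences between caffeine and vehicle (pseudocount 0.5) were 0.85 to 1.16 for the raised genes and -2 to -1.16 for the lowered genes. On lane 7, with 1 mouse per group, they were 1.19 to 2.11 and -2.86 to -1.64, respectively. Because the groups of the selecting contrast did not overlap, the sign of these values was fixed by the choice of genes, and no direction is read from them. Leaving out caffeine replicate 3 or vehicle replicate 3 of the Tg4-42 groups left 0 of all tested genes differentially expressed by edgeR, and 1641 and 1869 genes, respectively, then had an unadjusted p under 0.05. Leaving out vehicle replicate 1 left 3 genes, and 2586 with an unadjusted p under 0.05. With 1 Tg4-42 mouse left out, the widest range of log2 differences among the 9 genes was -3.39 to -2.48, for Chodl.

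**Figure D3:**
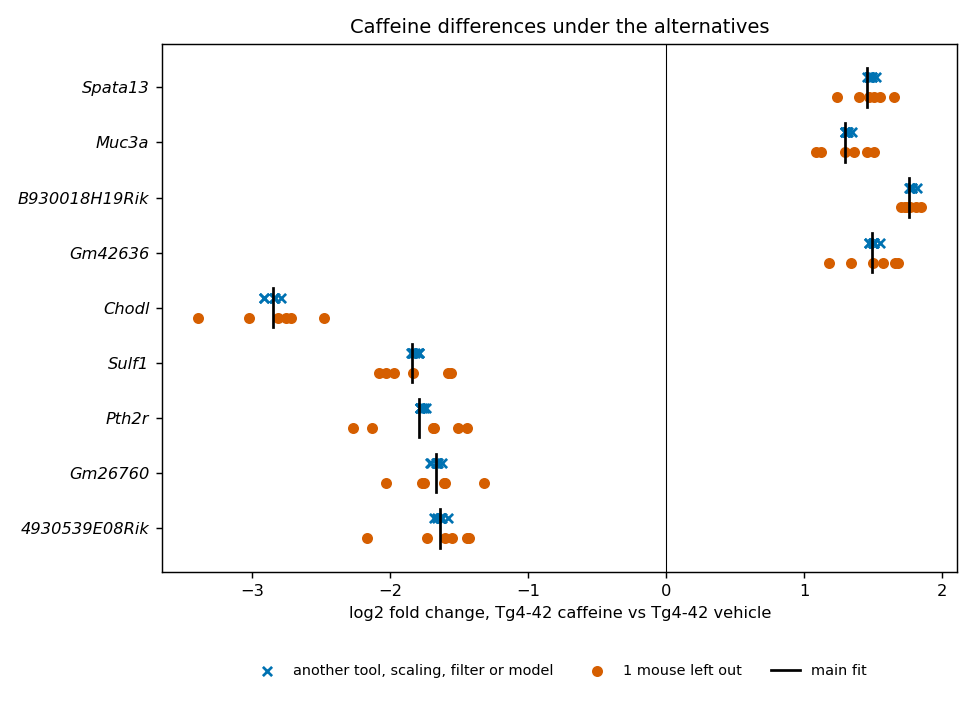
Log2 fold change between Tg4-42 caffeine and Tg4-42 vehicle (horizontal axis) of the 9 genes, with a black bar for the value in the text, blue crosses for another tool, scaling, filter or model, and orange dots for fits with 1 Tg4-42 mouse left out. The dots spread more than the crosses, for Chodl from -3.39 to -2.48 against -2.91 to -2.79.

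Sulf1 acts on heparan sulfate, and 22 of 26 other genes of heparan sulfate synthesis and editing were tested. In Tg4-42 mice, 18 of them were lower and 4 were higher after caffeine than on vehicle, with a median log2 difference of -0.23, whereas the median of all tested genes was -0.01. Under the other edgeR scalings, filters and models and with any 1 Tg4-42 mouse left out, between 15 and 20 of the tested genes were lower. Hs6st2, one of the sulfotransferases that add the 6-O-sulfate groups Sulf1 removes, passed the test. It fell from 108 to 63.2 CPM (log2 -0.77, SE 0.16, adjusted p = 0.0399 by edgeR). It was also lower with caffeine than in WT mice (116 CPM, adjusted p = 0.0279 by edgeR). The other tested 6-O-sulfotransferases, Hs6st1 (log2 -0.07, SE 0.19, adjusted p = 0.894 by edgeR) and Hs6st3 (log2 -0.03, SE 0.32, adjusted p = 0.971), did not pass. The related sulfatase Sulf2 averaged 52.9 CPM with caffeine, 78.3 CPM with vehicle and 68.2 CPM in WT mice (log2 -0.57, SE 0.16, adjusted p = 0.092 by edgeR). Larger differences with wider errors were those of Hs3st2, a 3-O-sulfotransferase (log2 -1.24, SE 0.34, adjusted p = 0.0979 by edgeR), and Hpse, the heparanase that cleaves the chains (log2 -1.46, SE 0.53, adjusted p = 0.178). Hpse averaged only 0.469 CPM with caffeine and 1.29 CPM with vehicle, and caffeine replicate 2, at 0.207 CPM, lay at the floor. The largest rise was that of Hs3st4 (log2 0.21, SE 0.15, adjusted p = 0.517 by edgeR).

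**Figure D4:**
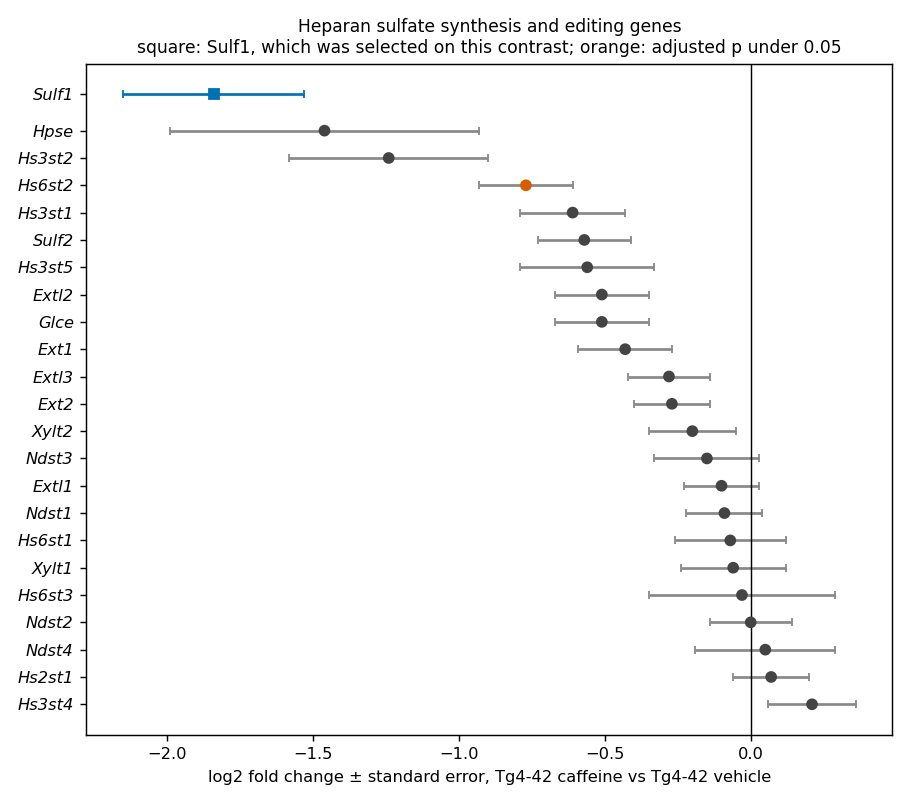
Log2 fold change with its standard error between Tg4-42 caffeine and Tg4-42 vehicle for the 22 tested genes of heparan sulfate synthesis and editing, in order of size, with Sulf1 as a blue square above them. Most points lie left of 0, and Hs6st2 (orange, log2 -0.77) is the one that passed an adjusted p of 0.05.

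Among the core proteins that carry heparan sulfate, 12 of 15 were tested, and 6 were higher and 6 lower after caffeine (median log2 -0.10). Sdc2, the membrane proteoglycan syndecan-2, fell from 67.6 to 42.7 CPM (log2 -0.66, SE 0.13, adjusted p = 0.0385 by edgeR), and WT mice had 62.1 CPM. The calls of Hs6st2 and Sdc2 each held in 2 of 6 fits with 1 Tg4-42 mouse left out, with log2 differences of -0.88 to -0.59 and -0.76 to -0.60. Both were lost with the lane as a covariate (adjusted p = 0.0647 and 0.0554 by edgeR). The call of Hs6st2 was also lost with library totals, where its adjusted p by edgeR rounded to 0.05.

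For the partners of Spata13, 14 of 15 genes of APC binding and of Rac and Cdc42 signalling were tested and 0 passed the test with edgeR, 2 having an unadjusted p under 0.05 (median log2 0.07). Of all tested genes, 0.881% passed and 17.0% had an unadjusted p under 0.05, so that counts of 0 in lists of this size, here and in the following lists, lie near the share of all genes. Arhgef4, the nearest relative of Spata13, averaged 132 CPM with caffeine and 110 CPM with vehicle (log2 0.26, SE 0.14, adjusted p = 0.373 by edgeR). The mucins were mostly at the floor. Only 3 of 15 counted mucin genes were tested, and Muc3, Muc13, Muc20 and Mucl1 had 0 counts in every mouse. Muc1 averaged 0.142 to 0.246 CPM by group and was not tested.

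Of the relatives of Chodl with a C-type lectin domain, 9 were tested and 0 passed with edgeR, 1 having an unadjusted p under 0.05 (median log2 0.23). Layn, its closest relative, had a log2 difference of -0.32 (SE 0.30, adjusted p = 0.634 by edgeR). In the parathyroid hormone system, 10 genes were tested and 0 passed with edgeR, 3 having an unadjusted p under 0.05 (median log2 0.15). The ligand gene Pth2 averaged at most 0.0487 CPM in any group, under the floor, and Pth had 0 counts in every mouse. Pth1r, the sister receptor, averaged 6.02 CPM with caffeine and 6.3 CPM with vehicle (log2 -0.06, SE 0.24, adjusted p = 0.924 by edgeR). Among 9 tested receptors of the secretin family, 0 passed with edgeR and 1 had an unadjusted p under 0.05 (median log2 -0.02).

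Several sets of cell type markers moved with the caffeine group as well, and others were mixed. In RNA from sorted nuclei, fewer nuclei of a type and less RNA per nucleus cannot be told apart. All 12 dentate granule cell markers were higher with caffeine than with vehicle (median log2 0.62, 11 or 12 of them under the edgeR alternatives and without any 1 Tg4-42 mouse), and their summed level was 1360 to 1620 CPM with caffeine, 764 to 1248 CPM with vehicle and 893 to 1176 CPM in WT mice. One of them, Stxbp6, passed the test (log2 0.81, SE 0.16, adjusted p = 0.0399 by edgeR), a call that was lost with the lane as a covariate (0.0582) and in 3 of 6 fits with 1 Tg4-42 mouse left out. Of 13 interneuron markers, 12 were lower (median log2 -0.49), with sums of 1445 to 1715 CPM with caffeine against 1887 to 2630 CPM with vehicle and 1808 to 2164 CPM in WT mice, and Slc32a1, the vesicular GABA transporter, passed the test (log2 -0.93, SE 0.20, adjusted p = 0.0462 by edgeR). The call of Slc32a1 was lost with library totals (adjusted p = 0.0586 by edgeR), with the lane (0.0668) and in 5 of 6 fits with 1 Tg4-42 mouse left out. Of 13 subiculum and deep cortex markers, 11 were lower (median log2 -0.48; 288 to 429 CPM with caffeine, 399 to 543 CPM with vehicle). Of 5 mossy cell markers, 4 were lower, but their sum (429 to 612 CPM against 769 to 1171 CPM) was carried mostly by Sv2b, a synaptic vesicle protein, which averaged 448 CPM with caffeine and 807 CPM with vehicle (log2 -0.85, SE 0.19, adjusted p = 0.0469 by edgeR). The log2 differences of the other 4, Calb2, Calcrl, Csf2rb2 and Ap2s1, were -0.59 to 0.10, and none of them passed. The call of Sv2b was lost with library totals (adjusted p = 0.0557 by edgeR), the replicate block (0.0574), the lane (0.0688), only the 2 groups (0.0534) and in 4 of 6 fits with 1 Tg4-42 mouse left out. Of 8 CA1 markers, 6 were lower (median log2 -0.22). Their sums were 484 to 655 CPM with caffeine, 635 to 737 CPM with vehicle and 566 to 905 CPM in WT mice. A large part of the lower sum came from Dcn, which is also listed as a marker of meningeal fibroblasts. Dcn averaged 81.2 CPM with caffeine and 169 CPM with vehicle, and it ranged from 8.31 to 197 CPM within the caffeine group (log2 -1.05, SE 1.07). In CA2, 4 of 6 markers were higher (0.09), and in CA3, 6 of 8 (0.28). Tested Cajal-Retzius markers split into 2 higher and 2 lower (0.01). Lower were 5 of 8 tested markers of thalamus and habenula (-0.30) and 3 of 4 of septum and striatum (-0.44). From these lists 0 markers passed between caffeine and vehicle with edgeR.

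Markers of non-neuronal cells were present at low levels and differed too. All 6 oligodendrocyte markers were lower with caffeine (253 to 362 CPM against 362 to 508 CPM with vehicle and 326 to 481 CPM in WT mice), 5 of 6 astrocyte markers were lower (276 to 349 CPM against 296 to 415 CPM with vehicle), and all 6 microglia markers were lower (22.3 to 27.8 CPM against 28.4 to 38.8 CPM with vehicle). Choroid plexus markers summed to 17.7 to 149 CPM with vehicle and 19.6 to 60.6 CPM with caffeine. No marker of these lists was at 0 in all mice. The part that these shifts, and that of Rbfox3, have in the differences of the 9 genes was not tested.

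**Figure D5:**
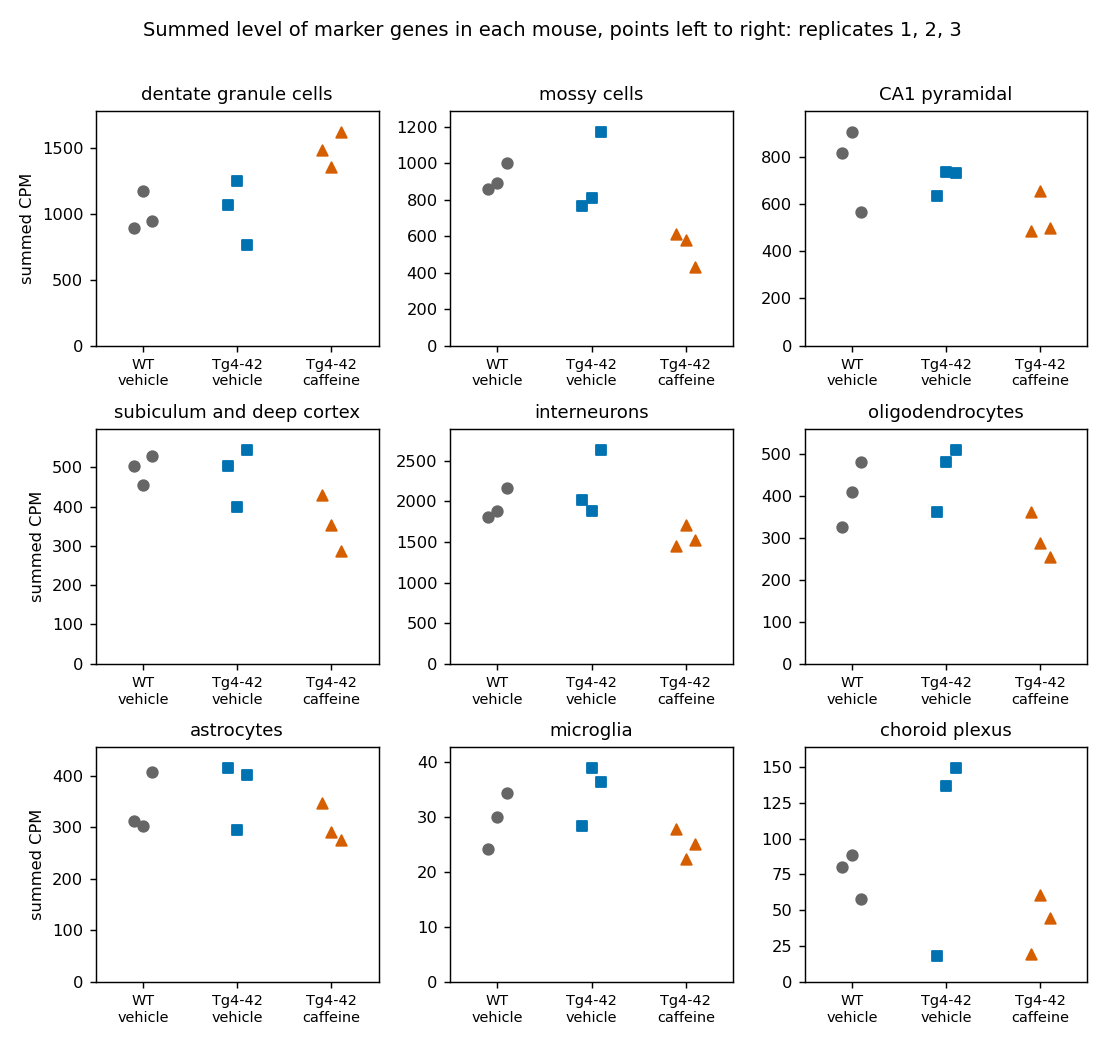
Summed CPM (linear axis from 0) of the marker genes of 9 cell types in each mouse, with WT vehicle, Tg4-42 vehicle and Tg4-42 caffeine mice as grey circles, blue squares and orange triangles in replicate order. Dentate granule cell markers lie at or above 1359.9 CPM in the caffeine group and at or below 1247.9 CPM elsewhere, and interneuron markers lie at or below 1715 CPM in the caffeine group and at or above 1808 CPM elsewhere.

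The other markers of long-range somatostatin neurons are given together with Chodl. Besides Chodl, Sst, the somatostatin gene, averaged 155 CPM with caffeine and 241 CPM with vehicle (log2 -0.64, SE 0.25, adjusted p = 0.222 by edgeR), and Npy, the gene of neuropeptide Y, had a log2 difference of -0.47 (SE 0.17, adjusted p = 0.183 by edgeR). Tacr1, the substance P receptor, had one of -0.66 (SE 0.45, adjusted p = 0.492). Nos1, the neuronal nitric oxide synthase, differed in the opposite direction, with 32.7 CPM with caffeine and 25.0 CPM with vehicle (log2 0.39, SE 0.16, adjusted p = 0.228 by edgeR). None of the 4 passed the test. Chodl was chosen for the size of its fall in this contrast (log2 -2.85). Its larger difference therefore follows from the choice, and nothing is read from it.

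Within groups, the 9 genes did not vary as 1 block. Deviations of log2 CPM from the group means over the 9 mice gave correlations from -0.34 to 0.89 for the 6 pairs of raised genes (median 0.22) and from -0.39 to 0.83 for the 10 pairs of lowered genes (median 0.20). The 20 pairs of a raised with a lowered gene lay between -0.79 and 0.63 (median -0.34), and 4 of them were positive. Spata13 and Muc3a were the most alike (r = 0.89), and within the vehicle group both were lowest in replicate 3. Sulf1 and Gm26760 came next (r = 0.83). These are descriptions over 9 libraries that differ in depth. Vehicle replicate 3 also had the lowest dentate granule cell sum (763.6 CPM) and the highest interneuron sum (2629.6 CPM) of all mice, and their part in the level of Spata13 and Muc3a was not tested.

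For each gene the most similar deviations among all 17361 tested genes were sought. The highest correlation lay between 0.957 and 0.997 for each of the 9 genes, and as the maximum over so many genes in 9 mice it only describes these libraries. The gene most like Spata13 was Dock10 (r = 0.981, n = 9 mice), an exchange factor for small GTPases that is in the dentate granule cell list and had a log2 caffeine difference of 0.41 (SE 0.25, adjusted p = 0.442 by edgeR). Slx4 and Gprc5c followed for Spata13 (both r = 0.977), with log2 caffeine differences of -0.01 and 0.0. For Pth2r it was Cldn1 (r = 0.988), which encodes the tight junction protein claudin-1 and fell with caffeine (log2 -1.30, SE 0.27, adjusted p = 0.0456 by edgeR). For 4930539E08Rik it was Adgrg1 (r = 0.978), an adhesion G protein-coupled receptor that also fell (log2 -1.11, SE 0.20, adjusted p = 0.0385 by edgeR). The nearest genes of the other members were Kif26b for Muc3a (r = 0.965), Npr3 for B930018H19Rik (0.997), Cflar for Gm42636 (0.957), Sepsecs for Chodl (0.985), Efr3a for Sulf1 (0.979) and Rita1 for Gm26760 (0.974), none of which was differentially expressed between caffeine and vehicle.

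The genes next to the 9 on the chromosome were looked at as well. Of the 18 nearest tested genes, 1 on either side of each, 0 were differentially expressed between caffeine and vehicle with edgeR, which lies near the 0.881% of all tested genes. Cntn1 ends 2.4 kb before Gm26760 on the same strand and had a log2 difference of -0.47 (SE 0.13, adjusted p = 0.0904 by edgeR), against -1.67 for Gm26760. Pikfyve ends 3.4 kb before Pth2r and had one of 0.20 (SE 0.12, adjusted p = 0.415 by edgeR). Slco5a1, 5.4 kb after Sulf1 on the opposite strand, had one of -0.08 (SE 0.31, adjusted p = 0.923 by edgeR), and Mipep, 20.0 kb after Spata13, one of 0.32 (SE 0.16, adjusted p = 0.329 by edgeR).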

How the data were processed

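RNA from NeuN-sorted hippocampal nuclei of 9 mice was amplified with a low-input kit that does not mark the strand and sequenced as single-end 50-base reads. The authors aligned the reads with STAR to mm10 (GRCm38 per the submitters' processing notes) and deposited featureCounts exon counts per gene as whole counts without normalization. Groups came from the genotype and treatment labels. Only caffeine is named as a treatment in the labels, and the vehicle was taken from the study's methods. The labels state 6 animals per group for nuclei isolation, whereas 3 libraries per group were analysed. The replicate numbers follow the accession order.

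Counts were analysed in R 4.3.3 with edgeR 4.0.16 (quasi-likelihood F test, robust option, TMM scaling, minimum count 10 and total 15, all 9 libraries in a single model, Benjamini-Hochberg threshold 0.05). CPM used TMM-scaled library sizes, and log values had a prior count of 2. Single genes were also compared with WT mice by exact permutation tests (two-sided, log2 scale, pseudocount 0.5 CPM). Symbols and positions came from GENCODE M21 (GRCm38), and 360 of 48709 identifiers had no symbol. Promoters came from RefSeq (GRCm38.p6). On simulated data with 200 genes of 17361 changed by a log2 fold of 1.5 between caffeine and vehicle, 92.5% were recovered and 7.5% of calls were false. The changed genes were drawn only from genes with a mean above 2 times the minimum count. The simulated mice had no lane or cell composition effect, so these shares do not carry over to the real libraries.

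Alternatives were DESeq2 1.42.0, RLE factors, library totals, no filter, a mean of at least 50 counts, the replicate number as a block, the lane as a covariate, only the groups compared, and each mouse left out. The alternatives of the gene list counts were added after seeing the data. Members and gene lists were chosen with earlier results of these data known. The text names the 9 genes, the next genes in size, the relatives and list genes that passed the test, neighbours and overlapping genes, the tested genes most like each member, and markers. Sulf2, Hs6st1, Hs6st3, Hs3st2, Hs3st4, Hpse and the ligands of Pth2r were named after their values were seen.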

Additional observations from a re-analysis of the deposited data

How the results depend on the processing

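Because the contrast between caffeine and vehicle selected the 9 genes, their counts of calls in it are descriptions and no sign of stability. Of the 9 genes, 5 were differentially expressed with a mean of at least 50 counts, which removes 4 of them from testing, and 1 with the lane as a covariate, and between 0 and 9 with 1 Tg4-42 mouse left out. The count over all genes, 153, became 740 with DESeq2, 78 with library totals, 987 without a filter on low counts, 9 with the lane, and 0 to 341 with 1 Tg4-42 mouse left out. DESeq2 gave no adjusted p to B930018H19Rik and Chodl. Without caffeine replicate 2, 58 genes and 4 of the 9 passed. The causes were not tested. With the replicate number as a block, 187 genes and 7 of the 9 passed, and for caffeine against WT mice 1 of the 9 passed instead of 2. The numbers follow the accession order and do not pair the mice, although replicate 3 of each group shares lane 7. Deviations of same-numbered mice correlated at 0.138 to 0.188 between WT and vehicle-treated Tg4-42 mice, where 16 genes passed with the block and 17 without it and 0 of the 9 in both, at -0.171 to 0.181 between the Tg4-42 groups and at -0.17 to 0.008 between WT and caffeine-treated mice.

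For vehicle-treated Tg4-42 against WT mice, 1 of the 9, Gm26760, passed without a filter (adjusted p = 0.00241 by edgeR), and Sulf1 and Pth2r turned to -0.03 and -0.02 without vehicle replicate 3, with leave-one-out ranges up to 0.50 and 0.67. For caffeine against WT mice, 5 passed with DESeq2, 6 without a filter, 1 with the lane, and 1 to 3 with 1 mouse left out. Depth limits Chodl and B930018H19Rik most, with as few as 2 and 5 counts in a mouse.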
